A study of Mus musculus with 2 samples.

Results

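The 8 genes described here, S100a8, S100a9, Retnlg, Ngp, Ltf, Lcn2, Camp and Padi4, encode neutrophil granule proteins, alarmins and related neutrophil proteins, and were taken by symbol from the 32285 genes of the count tables. They were measured in 2 single-nucleus RNAseq libraries, 1 from day 1 post-fracture (periosteum with the hematoma) and 1 from day 5 after musculoskeletal traumatic injury (MTI, periosteum with the callus). At day 5 post-MTI the genes were compared between nuclei in a cluster defined by other neutrophil markers and all other nuclei. At day 1 post-fracture they were compared between nuclei and barcodes with fewer than 200 detected genes.

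Both groups carried the genotype C57BL6, with no transgene or drug named in the labels. The mice were 10 to 14 weeks old, males and females mixed, and the tissue of 3 or 4 mice was pooled into each library. All had an open, non-stabilized tibial fracture, and in the MTI group the hindlimb muscles around the tibia were also injured by compression. Day and injury therefore differed together between the libraries, and their values stand side by side without a comparison between them. Each condition had 1 library, so there is no replicate and no test. Values in parentheses after a level, share or ratio give its 95% interval for counting error alone, exact Poisson for levels, exact Clopper-Pearson for shares and exact conditional binomial for ratios.

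Neutrophils are short-lived leukocytes that reach an injury early, carrying proteins stored in several kinds of granules. Azurophil granule genes are transcribed early in neutrophil maturation in the bone marrow, specific granule genes such as Ltf, Camp, Lcn2 and Ngp at a later stage, and transcription of both has largely ended when the cells leave the marrow. S100a8 and S100a9 encode cytosolic calcium-binding proteins that pair as calprotectin and act as alarmins, signals of tissue damage sensed through receptors such as Tlr4. Padi4 encodes an enzyme that converts arginine to citrulline in histones and other proteins and takes part in the release of neutrophil extracellular traps.

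The day 5 post-MTI library held 5899407 UMIs (unique molecular identifiers, each standing for an RNA molecule that was captured) in 1446 barcodes, and 1127 nuclei (median depth 2364 UMIs) lay within the limits of the study on genes and on mitochondrial and ribosomal shares. The day 1 post-fracture library held 9389014 UMIs in 48987 barcodes, of which 2405 were kept as nuclei, with a median of 409 UMIs, and 43464 had fewer than 200 genes, with a median of 148 UMIs. Myogenic nuclei, which the study took out in a further step, were kept here in both libraries, so these numbers of nuclei are not those the study analysed. The libraries shared 33 barcode sequences. Levels are given as counts per 1000000 UMIs of a population (CPM).

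All 8 genes are protein-coding, and none overlapped another annotated gene in mm10, gene models of type TEC left aside. S100a8 lies at chr3:90668978-90670035 on the plus strand and S100a9 at chr3:90692632-90695721 on the minus strand, 22596 bp apart. Camp (chr9:109847379-109849617, minus strand), Ngp (chr9:110419747-110423012, plus strand) and Ltf (chr9:111019271-111042767, plus strand) lie in a row on chromosome 9, with 570129 bp between Camp and Ngp and 596258 bp between Ngp and Ltf. Retnlg lies at chr16:48872621-48874496 on the plus strand, Lcn2 at chr2:32384633-32388252 on the minus strand and Padi4 at chr4:140745865-140774236 on the minus strand. Ltf (23497 bp) and Padi4 (28372 bp) are long genes in which exons make up 14.7% and 17.0% of the length, whereas the other 6 genes span at most 3620 bp. Intronic reads were counted, and nuclei hold much unspliced RNA. Where UMIs or detection of different genes are set side by side below, they are not corrected for gene length.

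Promoters of 4 of the 8 genes held the letters ATAAA between positions -40 and -16 before the RefSeq start, on the strand of the gene, where a TATA-type box would lie. Among 32851 RefSeq promoters of GRCm38.p6, 4.25% did. The 50 bases before the start are shown for these 4 genes because they share this feature, which was not used to choose them, with ATAAA in capitals. They lie at chr3:90669021-90669070 (plus strand) for S100a8, chr9:111019242-111019291 (plus strand) for Ltf, chr9:109849457-109849506 (minus strand) for Camp and chr4:140774204-140774253 (minus strand) for Padi4.
S100a8: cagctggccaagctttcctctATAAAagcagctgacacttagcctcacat
Ltf: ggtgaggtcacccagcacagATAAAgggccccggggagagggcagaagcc
Camp: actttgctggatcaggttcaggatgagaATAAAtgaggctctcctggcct
Padi4: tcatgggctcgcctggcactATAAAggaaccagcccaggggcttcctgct
The letters TTNNGNAA, a form of the site bound by C/EBP factors of granulocyte maturation, occurred on either strand between positions -250 and 49 in 6 of the 8 promoters, those of S100a8, S100a9, Retnlg, Ngp, Ltf and Lcn2, and in 40.7% of all promoters. These matches are a description of letters. The RefSeq starts differ from the ends of the gene spans given above, which come from another annotation. By those spans the windows shown for S100a8 and Camp lie inside the genes, and those for Ltf and Padi4 overlap them in part.

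At day 5 post-MTI, 87 of 1127 nuclei, 7.72% (6.23 to 9.44%), formed a neutrophil-like cluster. The cluster was made without the 8 genes and named from 11 other markers, among them the receptors Csf3r and Cxcr2, the decoy receptor Il1r2 and the histamine-producing enzyme Hdc. All 11 markers were detected there, together at 10833 CPM, against 287 CPM in the other 1040 nuclei and 35.7 to 1153 CPM in each of the other 12 clusters. Ly6g, a surface marker of mouse neutrophils, had 1 UMI in the cluster and none elsewhere, so it added little to the name. The nuclei were shallow, with a median of 734 UMIs against 2738 UMIs in the other nuclei. Markers of macrophages were at 434 CPM in the cluster, with C1qa at 0, and at 1218 CPM in the other nuclei. Monocyte markers were at 140 CPM, with Ly6c2 at 0, against 356 CPM. Myogenic markers were at 1429 CPM, with Pax7, Ckm and Myh3 at 0, against 8675 CPM, and all 5 erythroid markers were at 0 against 27.0 CPM. The 8675 CPM include the myogenic-like cluster (49830 CPM) and a cluster led by Chodl (7824 CPM). Clusters led by Hspa1a (2390.5 CPM) and Clic6 (1575 CPM) also lay above 1429 CPM, and the remaining clusters were at 59.8 to 258 CPM. Markers of injury-induced fibrogenic cells were at 519 CPM (365 to 715) against 1864 CPM. They were at 7150 CPM in the skeletal-like cluster and 58.8 to 902 CPM in the rest. Schwann cell markers were higher in the neutrophil-like cluster, at 294 CPM (182 to 450) with 1 of 4 at 0, against 100.8 CPM (91.5 to 111). Markers of B cells (84.1 against 48.8 CPM), skeletal stem and progenitor cells (84.1 against 55.6 CPM), mast cells and basophils (56.1 against 22.3 CPM) and adipocytes (112 against 87.9 CPM) rested on 4 to 8 UMIs there, with intervals that included the level of the other nuclei. The part of these cell types in the results was not tested.

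The 8 genes were far higher in neutrophil-like nuclei. Summed, they made up 4667 CPM (4179 to 5196) in neutrophil-like nuclei and 64.5 CPM (57.1 to 72.6) in the other nuclei, a ratio of 72.4 (61.5 to 85.2). These nuclei held 1.65% of all UMIs of retained nuclei and 54.8% (50.7 to 58.8%) of the UMIs of the 8 genes. Of the 8 genes, S100a8, S100a9, Ltf and Padi4 had at least 20 UMIs, and each was at least 2-fold higher with an interval above 1, a call that 7.8% of all 12746 genes with 20 UMIs received. These UMIs were counted over both populations for every gene. Ltf had 14 outside the neutrophil-like nuclei and reached 20 only with the group where it was high. Retnlg, Ngp, Lcn2 and Camp did not reach 20 UMIs and rest on 10 to 16 UMIs each, with ratios whose intervals also lay above 1. Weighting each nucleus equally gave a ratio of 32.2, and calling neutrophil-like every nucleus with at least 2 of the markers, without clusters, gave 6.98 for 219 nuclei. Without the myogenic-like nuclei among the others the ratio was 63.3.

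**Figure D1:**
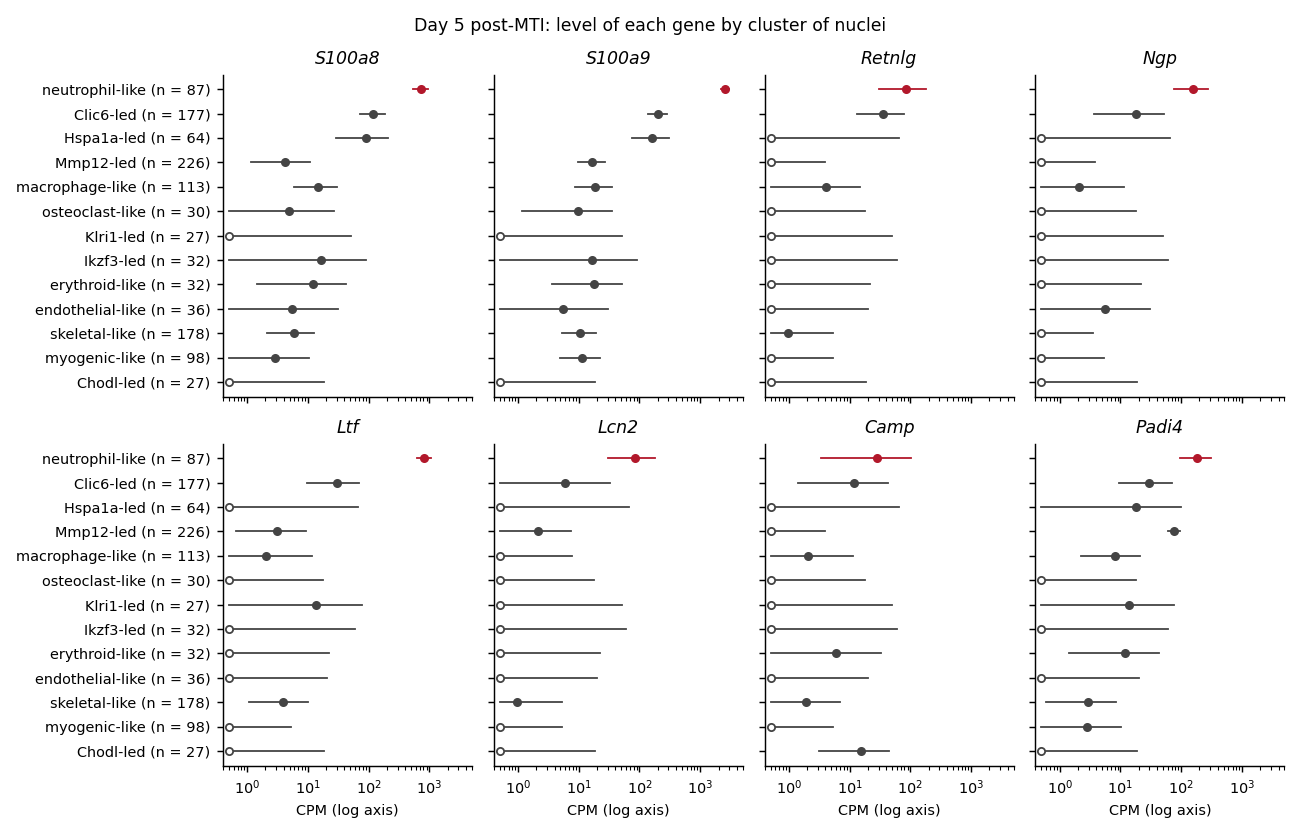
Level of each gene in the 13 clusters of day 5 post-MTI nuclei, as CPM on a log axis, with 95% Poisson intervals; open marks at the left edge are values of 0. Neutrophil-like nuclei (red) were at the right of every panel, and Padi4 was also at 76.9 CPM in the Mmp12-led cluster.

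Each alarmin of the pair was detected in more neutrophil-like nuclei than any other gene of the set, a count not corrected for gene length. S100a9 had 185 UMIs in 52 of the 87 neutrophil-like nuclei, 2593 CPM, and 94 UMIs in 50 of the 1040 other nuclei, 22.0 CPM, a ratio of 118 (91.3 to 152). S100a8 had 51 UMIs in 34 neutrophil-like nuclei, 715 CPM, and 49 UMIs in 32 other nuclei, 11.5 CPM, a ratio of 62.2 (41.2 to 94.0). The level of S100a9 in neutrophil-like nuclei was 1393 CPM with a mitochondrial limit of 0.5% in place of 5%, and 255 CPM in the nuclei with at least 2 markers. S100a8 was at 455 CPM with at least 500 genes, 488 CPM with the 0.5% limit and 87.3 CPM with marker counts. The UMIs were spread over many nuclei, and the highest nucleus held 8.11% of the S100a9 UMIs and 7.84% of the S100a8 UMIs of the cluster. After each nucleus was thinned to 500 UMIs, 52.9% (41.9 to 63.7%) of neutrophil-like nuclei had S100a9 and 28.7% (19.5 to 39.4%) had S100a8. The same shares were 1.44% and 0.865% in the other nuclei, and 1.02% and 0% in myogenic-like nuclei (0 of 98 nuclei for S100a8, with an interval up to 3.69%). Both genes occurred together in 29 of the 34 neutrophil-like nuclei with S100a8 and in 12 of the 32 such nuclei elsewhere.

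Among the granule genes, Ltf, which encodes the iron-binding lactotransferrin of specific granules, had 59 of its 73 UMIs in neutrophil-like nuclei, 827 CPM against 3.28 CPM elsewhere, a ratio of 252 (139 to 489). These UMIs came from only 7 nuclei, with 17, 12, 10, 9, 8, 2 and 1 UMIs, and the level was 602 CPM without the nucleus with most UMIs of the 8 genes. It was 538 CPM with at least 500 genes, 468 CPM with the 0.5% mitochondrial limit and 25.1 CPM with marker counts in place of clusters. Ngp, a granule protein related to cathelicidins, had 11 UMIs in 6 neutrophil-like nuclei and 5 UMIs elsewhere, 154 against 1.17 CPM, a ratio of 132 (42.1 to 483), and was at 61.0 CPM in neutrophil-like nuclei with the 0.5% limit. Lcn2, which encodes a lipocalin that binds bacterial iron carriers, had 6 against 4 UMIs, 84.1 against 0.938 CPM, a ratio of 89.7 (21.3 to 432). Ltf, Ngp and Lcn2 were thus above the other nuclei by a margin wider than counting error, with wide intervals for the latter pair.

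Camp, which encodes the precursor of the cathelicidin peptide, rested on few UMIs. It had 2 in neutrophil-like nuclei, 28.0 CPM, and 9 in the others, 2.11 CPM, a ratio of 13.3 (1.40 to 64.2). Of these 9, 3 Camp UMIs lay in 1 nucleus of a cluster led by Chodl and Pax7, a marker of muscle progenitors, where no other of the 8 genes was detected. Retnlg, which encodes a secreted resistin-like protein, had 6 UMIs in 5 neutrophil-like nuclei and 9 UMIs elsewhere, 84.1 against 2.11 CPM, a ratio of 39.9 (11.7 to 125). Of those 9 UMIs, 6 lay in a cluster led by Clic6.

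Most Padi4 UMIs lay outside the neutrophil-like cluster. Padi4 had 13 UMIs in 11 neutrophil-like nuclei, 182 CPM, and 91 UMIs in 52 other nuclei, 21.3 CPM, a ratio of 8.54 (4.38 to 15.3). This interval lay below those of S100a8, S100a9, Ngp, Ltf and Lcn2 and overlapped those of Retnlg and Camp. Of all 104 Padi4 UMIs, 73 (70.2%, 60.4 to 78.8%) came from 34 of the 226 nuclei of a cluster led by Mmp12, Arg1 and Hmox1, which received no name. Padi4 reached 76.9 CPM (60.2 to 96.6) there, 14.2 times (8.37 to 25.2) its level in the remaining nuclei outside the neutrophil-like cluster, and the highest nuclei held 11 and 9 UMIs. Neutrophil-like nuclei were 2.37 times (1.21 to 4.31) higher than this cluster, but their Padi4 level was 61.0 CPM with the 0.5% mitochondrial limit and 53.8 CPM with marker counts.

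The other 7 genes were at 16.8 CPM or less in the Mmp12-led nuclei. S100a8 had 4 UMIs there (4.21 CPM), S100a9 16 UMIs (16.8 CPM) and Ltf 3 UMIs (3.16 CPM), Lcn2 had 2 UMIs, and Retnlg, Ngp and Camp had none. S100a8 was lower than in the remaining nuclei outside the neutrophil-like cluster, at 0.310 times (0.0811 to 0.851) their level, and the intervals of the other 6 genes, with 0.716 (0.390 to 1.24) for S100a9 and 0.952 (0.171 to 3.605) for Ltf, included 1. Of the 45 S100a8 UMIs of the remaining nuclei, 20 lay in the Clic6-led cluster, and the ratio without that cluster was not tested. Only 6 of the 34 nuclei with Padi4 also held S100a8 or S100a9. All 6 macrophage markers were detected in the Mmp12-led cluster, together at 2330 CPM, and the neutrophil markers at 536 CPM, with Ly6g and Stfa2l1 at 0. Csf3r was found in 61 of its nuclei and in 9 of the 34 with Padi4. After thinning, Padi4 was found in 4.87% (2.45 to 8.54%) of Mmp12-led nuclei, 10.3% (4.84 to 18.7%) of neutrophil-like nuclei and 0% of the 98 myogenic-like nuclei.

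Outside the neutrophil-like cluster, the shallow Clic6-led cluster (177 nuclei, median 693 UMIs) had the highest summed level, 452 CPM (356 to 565). S100a9 was at 202 CPM there and S100a8 at 119 CPM, in 13 and 10 nuclei. The cluster was led by Clic6, Elf5 and repeat-rich transcripts and received no name. Its neutrophil markers were at 1153 CPM, the highest among the other clusters, and lists of other cell types were also detected, with myogenic markers at 1575 CPM and endothelial markers at 541 CPM. Neutrophil-like nuclei exceeded it 10.3-fold (8.03 to 13.4) for the summed genes, and without it the ratio of neutrophil-like to other nuclei was 96.1. Gene by gene, the intervals against this cluster included 1 for Retnlg (2.36, 0.630 to 8.82, on 6 UMIs each). They also did for Camp (2.36, 0.171 to 32.5, on 2 UMIs each), and those of the other genes of the set lay above 1. A cluster led by Hspa1a, a heat shock gene, came next at 270 CPM (151 to 445) on 15 UMIs. These 64 shallow nuclei (median 769.5 UMIs) passed the marker thresholds for neutrophils. The stricter rule for shallow clusters left them unnamed, so they count among the other nuclei. Their neutrophil markers were at 845 CPM (621 to 1123), with 4 of 11 at 0, and their macrophage markers at 1564 CPM. The ratio without this cluster was not tested. In barcodes removed by the filters the summed level was 55.1 CPM, 0.393 times (0.310 to 0.493) that of all retained nuclei. These retained nuclei include the neutrophil-like nuclei, and the other nuclei alone were at 64.5 CPM. The part that RNA from broken cells had in the signal outside the neutrophil-like cluster was not tested.

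Most neutrophil-like nuclei held few of the 8 genes at this depth. Of 87 nuclei, 28 had none, 24 had 1, 20 had 2, 8 had 3, 4 had 4, 2 had 5 and 1 had 7 of the genes. At least 2 genes were found in 35 of 87 nuclei (40.2%) and in 24 of 1040 other nuclei (2.31%), although the other nuclei were deeper.

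**Figure D2:**
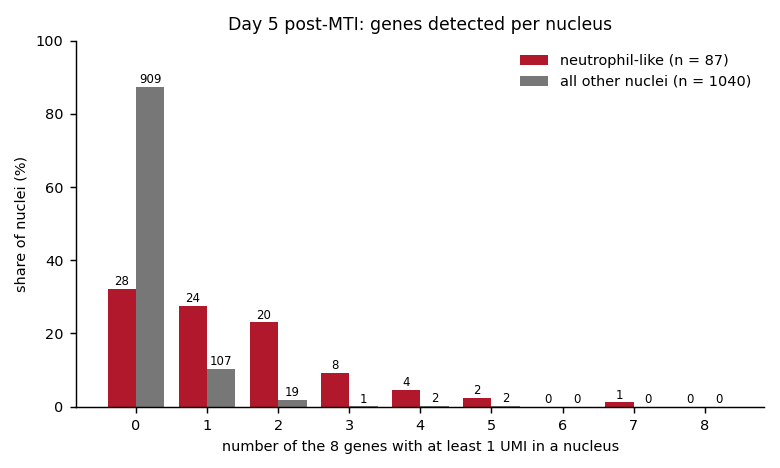
Number of the 8 genes with at least 1 UMI in a nucleus of the day 5 post-MTI library (x axis) against the share of nuclei in percent, for neutrophil-like (red) and all other nuclei (grey), with the number of nuclei above each bar. Of the other nuclei, 909 of 1040 had none of the genes, against 28 of 87 neutrophil-like nuclei.

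Neutrophil-like nuclei fell into 2 sub-clusters when the immune nuclei were clustered again, also without the 8 genes, and 1 nucleus lay in neither. The smaller sub-cluster (30 nuclei, 23856 UMIs) was led by Ltf, Ngp, Chil3, which encodes a secreted chitinase-like protein, and the collagenase gene Mmp8. All 59 Ltf, 11 Ngp and 2 Camp UMIs of the neutrophil-like nuclei lay in it. The larger sub-cluster (56 nuclei, 45970 UMIs) had 0 UMIs of these 3 genes. The interval of the ratio began at 29.9 for Ltf and 4.84 for Ngp, both on the side of the smaller sub-cluster, and included 1 for Camp. The split depended on the clustering. It also appeared with the resolutions doubled, as 39 nuclei led by Ltf and 47 others, counts of whole sub-clusters. The whole Ltf-led sub-cluster of the main run held 34 nuclei, 30 of them neutrophil-like, and its leading genes were taken over all 34. With the 8 genes kept in the clustering, the resolutions halved, at least 500 genes or the 0.5% mitochondrial limit, only 1 cluster of immune nuclei, of 85, 91, 63 and 59 nuclei, was high in neutrophil markers, and no separate cluster led by Ltf formed. The nuclei clustered again also changed, since only clusters named as immune entered. The 226 Mmp12-led nuclei, unnamed, stayed out in the main run. An Arg1-led cluster entered as monocytes with the 8 genes kept (195 nuclei) and with the resolutions doubled (113 nuclei). The part of this change in the split was not tested.

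The alarmins were present in both sub-clusters. S100a9 had 55 UMIs in the Ltf-led sub-cluster and 130 in the larger one, 2306 against 2828 CPM, a ratio of 0.815 with an interval (0.584 to 1.13) that included 1. S100a8 had 27 against 24 UMIs, 1132 against 522 CPM, a ratio of 2.17 (1.20 to 3.92). Padi4 had 8 against 5 UMIs (ratio 3.08, 0.889 to 11.98), and Retnlg and Lcn2 had 3 UMIs in each, too few to show a difference. The neutrophil markers were high in both, at 7503 CPM in the Ltf-led and 12769 CPM in the larger sub-cluster. Myogenic markers also differed, at 168 CPM (45.7 to 429) in the Ltf-led sub-cluster, with 4 of 6 markers at 0, and 2132 CPM (1731 to 2598) in the larger one, with 3 of 6 at 0. Their part in the other differences between the sub-clusters was not tested. All 7 nuclei with Ltf held S100a9, 5 held Ngp, 5 held S100a8 and 1 held Padi4, and both nuclei with Camp were among them. The nucleus with 17 Ltf UMIs held 7 of the 8 genes, all but Retnlg, among 1593 UMIs.

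**Figure D3:**
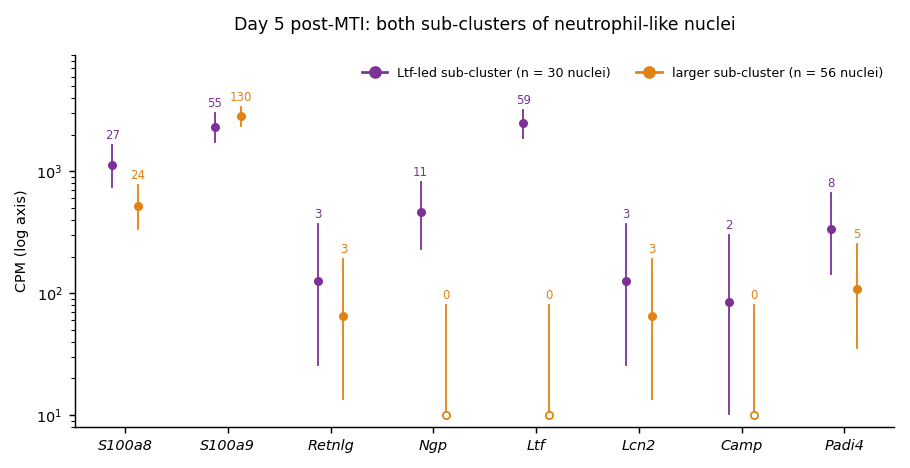
Level of each gene in the Ltf-led (purple, 30 nuclei) and the larger (orange, 56 nuclei) sub-cluster of neutrophil-like nuclei, as CPM on a log axis with 95% Poisson intervals and the number of UMIs above each point. Open marks at the bottom are values of 0, which Ltf, Ngp and Camp had in the larger sub-cluster.

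Across the 13 clusters, 7 of the 8 genes had a Pearson correlation of 0.918 to 0.999 with the summed level of the other 7, and Camp of 0.823. All clusters share 1 library, and the neutrophil-like cluster had the highest level of each of the 8 genes. Their sum was 4667 CPM there and at most 452 CPM in any other cluster. This 1 cluster therefore sets the correlations, which restate the ratios above. Padi4 had 0.918 although 70.2% of its UMIs lay in the Mmp12-led cluster. There were 9546 genes with at least 50 UMIs, genes of the set and neutrophil markers included. Those outside the set and these markers most like the summed set over the clusters were Rab44, Arg2, Nlrp12, Trim30b, Alox5, Msra, Slfn4, Gsdme, Pram1 and Clec4e, with correlations of 0.991 to 0.999. Alox5, which encodes the lipoxygenase that starts leukotriene synthesis, was at 603 CPM in neutrophil-like nuclei and at most 65.4 CPM in any other cluster. Clec4e, which encodes the pattern receptor Mincle, was at 336 CPM and at most 39.0 CPM elsewhere.

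Other genes of the neutrophil program were taken from lists, and a gene counted as higher or lower where its ratio was at least 2 or at most 0.5 with an interval on that side of 1. Over all genes with at least 20 UMIs the median ratio was 0.471, with 7.8% higher and 9.62% lower. Neutrophil-like nuclei held 1.65% of the UMIs of retained nuclei. A gene with few UMIs elsewhere could therefore not be called lower, even with 0 UMIs in them. For such genes neither call shows an equal level. Of 16 further granule and secreted genes, 8 had 20 UMIs, of which 6 were higher, none lower and 2 neither. Chil3 was the highest of them at 252 against 1.41 CPM, a ratio of 179 (68.2 to 552), followed by the collagenase gene Mmp8 with 52.8 (24.5 to 112). With 6 and 17 UMIs in the other nuclei, Chil3 and Mmp8 reached 20 UMIs only with the group where they were high. Ncf1, which encodes a subunit of the phagocyte oxidase, had a ratio of 4.32 (2.56 to 6.88). The gelatinase gene Mmp9 had a ratio of 5.57 (3.05 to 9.46) and Anxa1, which encodes the anti-inflammatory annexin A1, 2.16 (1.27 to 3.45). Lyz2, encoding lysozyme of macrophages and neutrophils, was at 112 CPM against 145 CPM, a ratio of 0.773 (0.332 to 1.53).

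None of the 5 azurophil granule genes, Mpo, Elane, Prtn3, Ctsg and Ms4a3, had a UMI in neutrophil-like nuclei. They had 12, 1, 11, 2 and 1 UMIs in the other nuclei, and at 71354 UMIs the interval of a count of 0 reaches up to 51.7 CPM. Of the factors of granulocyte maturation, Spi1, which encodes the myeloid factor PU.1, was higher with a ratio of 2.99 (1.95 to 4.40). Cebpe and Gfi1 had no UMI in neutrophil-like nuclei and 0 and 2 elsewhere, and Cebpa and Cebpd had none against 24 and 38, with intervals that included 1.

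Of 9 receptor genes for the proteins of the set, 6 had 20 UMIs, and 1 was higher, 3 were lower and 2 neither. Tlr4, the receptor for calprotectin, was higher in neutrophil-like nuclei, 336 against 152 CPM, a ratio of 2.21 (1.41 to 3.32). Lrp1, a scavenger receptor that takes up lactoferrin, was lower with a ratio of 0.355 (0.177 to 0.638), and so were the fatty acid receptor Cd36 with 0.181 (0.0373 to 0.531) and P2rx7, an ATP-gated channel, with 0 against 272 UMIs (interval up to 0.816). Of 10 other S100 genes and alarmins, 8 had 20 UMIs, of which S100a11 (9.04, 4.63 to 16.3) and S100a6 (2.59, 1.17 to 5.01) were higher and 6 neither. Il33, an alarmin of stromal cells, had 0 UMIs in neutrophil-like nuclei and 57 elsewhere, with an interval up to 4.00 that left a lower call out of reach. Hmgb1 was at 70.1 against 72.9 CPM. Padi2, the only relative of Padi4 or Retnlg with 20 UMIs, was at 28.0 against 9.85 CPM with an interval (0.334 to 10.9) that included 1.

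At day 1 post-fracture the set was lower in nuclei than in barcodes with fewer than 200 genes. The 8 genes together had 246 UMIs in the 2405 nuclei, 205 CPM, and 2505 UMIs in the 43464 barcodes under 200 genes, 366 CPM, a ratio of 0.559 (0.489 to 0.638). All 8 genes passed 20 UMIs, and 5 of them had a ratio with an interval below 1, against 7.3% of all 18806 genes with 20 UMIs. Only Ngp and Camp were at most 0.5-fold with such an interval, against 2.86% of all genes, and none was at least 2-fold higher, against 2.66%. The median ratio was 0.524 for the 8 genes and 1.05 for all genes, with quartiles of 0.8003 and 1.33. Among nuclei with at least 500 genes, 190 in number, the ratio of the summed genes was 0.211. The mitochondrial and ribosomal limits were applied to the nuclei and not to the barcodes under 200 genes. With the gene limits alone, Ngp (0.464, 0.277 to 0.741), Lcn2 (0.466, 0.244 to 0.828) and Retnlg (0.393, 0.150 to 0.874) were at most 0.5-fold. Camp was not (0.564, 0.319 to 0.945), and the share of all genes was not taken there.

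**Figure D4:**
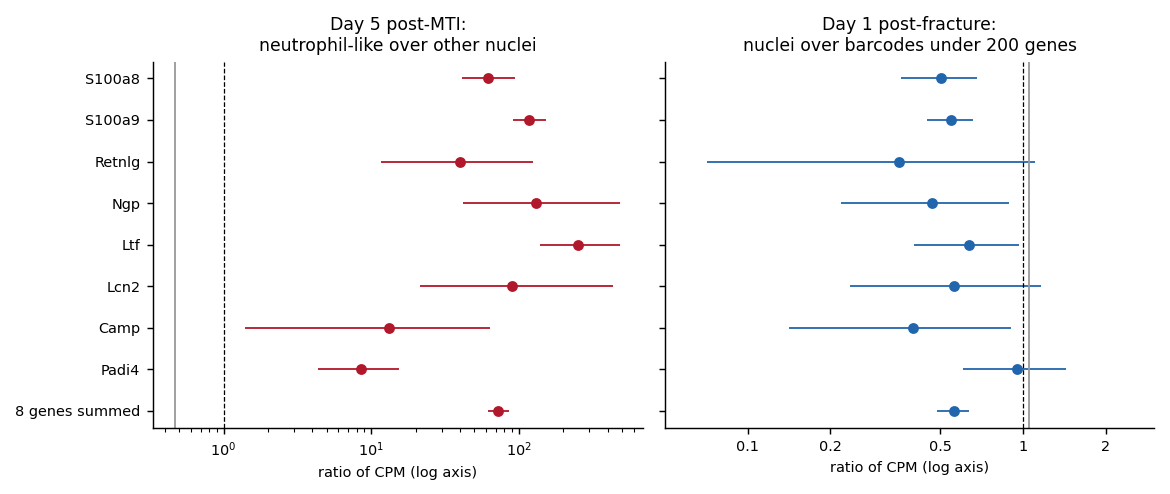
Ratio of CPM on a log axis for each gene and for the 8 genes summed, with 95% intervals, for neutrophil-like over other nuclei at day 5 post-MTI (left) and for nuclei over barcodes under 200 genes at day 1 post-fracture (right). Dashed lines mark a ratio of 1 and grey lines the median of all genes, 0.471 on the left and 1.05 on the right.

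S100a9 was at 101.5 CPM in day 1 nuclei (122 UMIs) and 186 CPM in the barcodes under 200 genes (1272 UMIs), a ratio of 0.546 (0.450 to 0.658). S100a8 was at 37.4 CPM against 74.5 CPM, a ratio of 0.503 (0.362 to 0.682), on 45 and 510 UMIs. Both alarmins therefore lay on the side of the shallow barcodes. Ltf had 25 against 224 UMIs and a ratio of 0.636 (0.403 to 0.963), Ngp 10 against 122 and 0.467 (0.218 to 0.888), and Camp 6 against 86 and 0.397 (0.142 to 0.901). For Lcn2, with 8 against 81 UMIs (0.563, 0.235 to 1.16), and Retnlg, with 3 against 48 (0.356, 0.0709 to 1.10), the intervals included 1. With the gene limits alone, on 14 Lcn2 and 7 Retnlg UMIs in the deeper barcodes, both intervals lay below 1. Padi4 was at nearly the same level in both, 22.5 against 23.7 CPM on 27 and 162 UMIs, a ratio of 0.949 (0.607 to 1.43), and was the gene of the set nearest to the median of all genes.

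The summed level was 373 CPM in barcodes under 100 genes, 383 CPM at 100 to 149 genes, 321 CPM at 150 to 199, 255 CPM at 200 to 299, 213 CPM at 300 to 499 and 129 CPM at 500 to 5000 genes, without the mitochondrial and ribosomal limits. S100a9 had its lowest level, 47.6 CPM, in the last of these classes, and S100a8 likewise with 22.7 CPM. Padi4 stayed between 18.1 and 29.8 CPM in all 6 classes. Ltf was at 14.9 CPM at 300 to 499 genes and 27.2 CPM at 500 to 5000, on 12 UMIs in each.

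**Figure D5:**
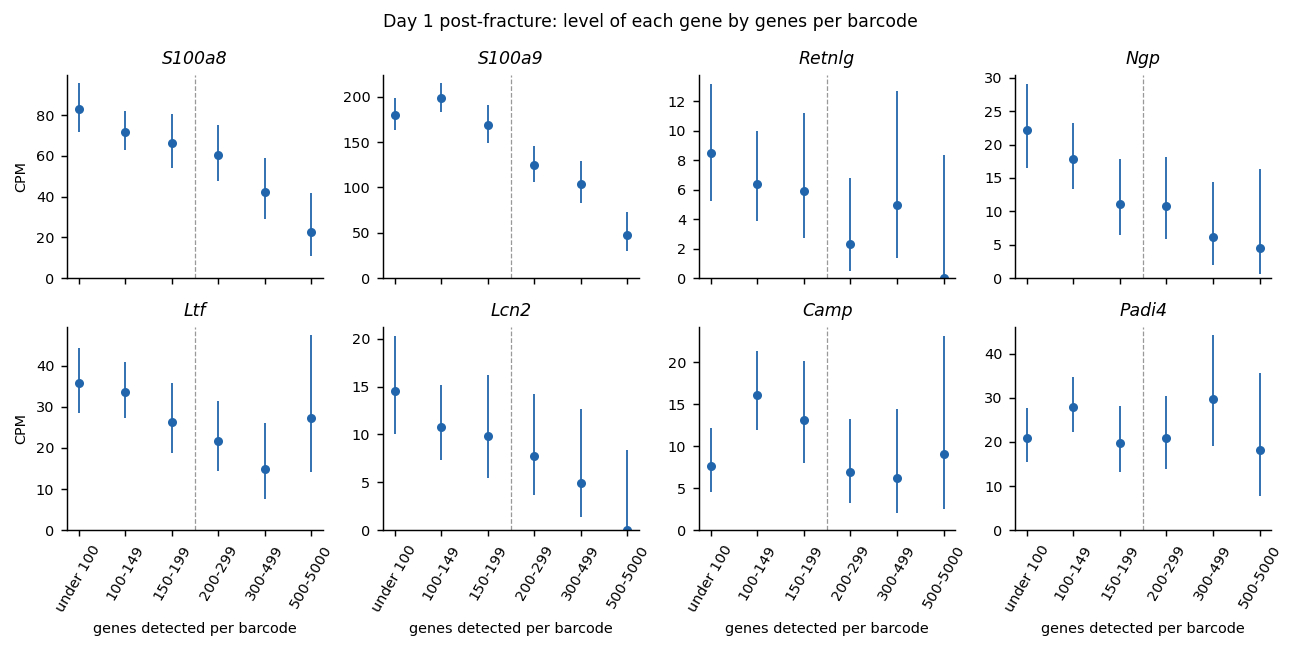
Level of each gene at day 1 post-fracture, as CPM with 95% Poisson intervals, in barcodes grouped by the number of detected genes (x axis), with the dashed line at 200 genes. S100a8 and S100a9 were lower in each class above 200 genes than in each class below it, whereas Padi4 stayed between 18.1 and 29.8 CPM.

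Barcodes with several of the 8 genes were rare at day 1. Of the nuclei, 226 of 2405 (9.40%, 8.26 to 10.6%) had any of the genes, against 2370 of 43464 barcodes under 200 genes (5.45%, 5.24 to 5.67%), with median depths of 409 and 148 UMIs. At least 2 of the genes were found in 9 nuclei (0.374%) and 67 shallow barcodes (0.154%), and S100a8 with S100a9 in 1 nucleus and 24 shallow barcodes. The nucleus with most UMIs of the set held 7, and without it the ratio was 0.544.

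In the day 1 barcodes under 200 genes the summed level of the set was higher with a neutrophil marker than without. No such rise was detectable in day 1 nuclei, on 31 UMIs with a marker and 215 without. The intervals of both ratios overlapped, so nuclei and shallow barcodes are not shown to differ here. In the 285 nuclei with a UMI of any of the 11 markers the summed level was 191 CPM, and in the 2120 without 207 CPM, a ratio of 0.925 (0.613 to 1.35). In barcodes under 200 genes it was 457 CPM in the 2941 with a marker and 359 CPM in the 40523 without, a ratio of 1.27 (1.11 to 1.46). S100a9 had a ratio of 1.31 (1.07 to 1.58) there and S100a8 of 1.39 (1.02 to 1.86), and the intervals of the other 6 genes included 1. With the gene limits alone, 693 barcodes with a marker and 4830 without gave a ratio of 1.17 (0.925 to 1.47) for the summed genes. S100a8 was higher with a marker there, 77.4 against 43.1 CPM, a ratio of 1.79 (1.13 to 2.76), and the intervals of the other 7 genes included 1. In the nuclei S100a8 had a ratio of 1.60 (0.680 to 3.39) on 9 and 36 UMIs.

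The neutrophil markers were also lower in nuclei when summed, while most of them did not pass the fold rule one by one. The 11 markers together were at 260 CPM in nuclei and 451 CPM in the barcodes under 200 genes, a ratio of 0.577 (0.512 to 0.649), with Csf3r at 0.523 (0.426 to 0.636). Of the 10 markers with 20 UMIs, only Mcemp1 was at most 0.5-fold with an interval below 1, against 2.86% of all genes, and 9 were neither higher nor lower by that rule. By the interval alone, Csf3r, Il1r2, Hdc, Clec4d, Mcemp1 and Mxd1 lay below 1, as 7.3% of all genes did. The intervals of Cxcr2, Trem1, Mrgpra2b and Stfa2l1 included 1, Stfa2l1 with a ratio of 1.05 (0.479 to 2.09). Among 14 such granule and secreted genes, Mmp9 (0.412, 0.240 to 0.664), Ncf1 (0.478, 0.338 to 0.658) and Itgb2l (0 against 23 UMIs) were lower and 11 neither, among them Mmp8 with 0.949 (0.433 to 1.87). None of 3 maturation factors, 7 receptors, 2 azurophil genes or 4 relatives met the rule, and of 9 S100 genes and alarmins only S100a4 was lower (0.477, 0.286 to 0.753). Markers of other cells differed in their side. The ratio was 1.4955 (1.41 to 1.59) for endothelial and 1.29 (1.28 to 1.30) for myogenic markers, 0.697 (0.605 to 0.7996) for macrophage, 0.490 (0.289 to 0.783) for erythroid and 0.514 (0.401 to 0.651) for osteoblast markers. Whether free RNA, cell debris or shallow neutrophil nuclei gave the UMIs in the barcodes under 200 genes was not tested.

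The make-up of the set is given side by side, and its shares and its S100a9 UMIs per S100a8 UMI are not corrected for gene length. S100a9 gave 55.6% (50.04 to 61.0%) of the UMIs of the set in neutrophil-like nuclei at day 5 post-MTI, 49.6% (43.2 to 56.0%) in day 1 nuclei and 50.8% (48.8 to 52.8%) in day 1 barcodes under 200 genes. In the other day 5 nuclei S100a9 gave 34.2% (28.6 to 40.1%) and Padi4 33.1% (27.6 to 39.0%). Padi4 gave 3.90% (2.09 to 6.58%) in neutrophil-like nuclei, 10.98% (7.36 to 15.6%) in day 1 nuclei and 6.47% (5.54 to 7.50%) in day 1 shallow barcodes. Per S100a8 UMI there were 3.63 (2.65 to 5.05) S100a9 UMIs in neutrophil-like nuclei and 1.92 (1.34 to 2.77) in the other nuclei of the same library, intervals that overlapped slightly. The same figure was 2.71 (1.91 to 3.91) in day 1 nuclei and 2.49 (2.25 to 2.77) in day 1 barcodes under 200 genes.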

How the data were processed

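Per the labels and methods, nuclei sorted with Sytox were made into droplet libraries, and the authors counted reads with Cell Ranger 7.0.1 on mouse mm10, intronic and exonic reads included. The labels name a human reference, but all gene identifiers are mouse. The deposited values are raw UMI counts per gene and barcode, not normalized. Gene positions are from GENCODE for mm10, whose release may differ, and promoters from RefSeq (GRCm38.p6). From the counts, nuclei of day 5 post-MTI were kept with 200 to 5000 genes and mitochondrial and ribosomal shares under 5% and 2% (day 1 post-fracture: 0.5% and 2.5%). They were clustered with Seurat 5.3.0 in R 4.3.3 on 2000 variable genes without the 8 genes described (30 components, resolution 1, then 20 and 1.5 for immune nuclei), in this library by itself. Datasets the study integrated with it were not analysed here, and myogenic nuclei, which the study removed, were kept.

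A cluster was named when 3 or more markers had 3 or more UMIs and were 1.5-fold or more above the other nuclei, also when pooled, and a marker was among the 100 leading genes (those with 10 or more UMIs), or among the first 10 in shallow clusters. Neutrophil-like nuclei are shallow, and their leading genes include the markers Stfa2l1, a member of a multigene family, and Hdc. The shallow Hspa1a-led cluster also passed the marker thresholds for neutrophils but stayed unnamed under the rule for shallow clusters. Day 1 nuclei were not clustered. Scrublet in scanpy 1.11.5 marked 0 of 1398 barcodes of the day 5 library, so doublets were not removed. Shares were also taken after thinning each nucleus to 500 UMIs. Genes with at least 20 UMIs in both populations together were held against the fold rule. Named genes are the 8 genes, genes of the lists that passed that rule, and the 10 most correlated genes. A listed gene that enters the counts of its list is not reported here by name. Genes named for leading a cluster, listed genes that did not pass the rule and single nuclei were chosen after their values were seen. The 8 genes, lists and naming thresholds were chosen with earlier results of these data known. With 1 library per condition there is no replicate and no p-value, and UMI counts limit the precision as the intervals show. The ratios were tested on simulated data. The clustering was run on simulated nuclei drawn from the profiles of its own classes, which cannot show that these classes are right. Other tools were Python 3.11.15, numpy 2.4.6, scipy 1.17.1, pandas 2.3.3 and matplotlib 3.10.9. The alternatives were other gene and mitochondrial limits, resolutions, the 8 genes kept in the clustering, marker counts in place of clusters, equal weights, and leaving out 1 nucleus. After the data were seen, leaving out the Clic6-led or the myogenic-like cluster and totals without mitochondrial and ribosomal UMIs were added.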

Additional observations from a re-analysis of the deposited data

How the results depend on the processing

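The direction of both summed ratios held under every alternative run. At day 5 post-MTI the ratio of 72.4 became 58.7 with the 0.5% mitochondrial limit, 32.2 with nuclei weighted equally, 6.98 with marker counts in place of clusters (219 nuclei, 76 of them in the cluster) and 96.1 without the Clic6-led cluster, and was 63.3 to 73.7 under the other alternatives. The share of neutrophil-like nuclei became 15.4% with the 0.5% limit and 19.4% with marker counts. At day 1 post-fracture the ratio of 0.559 became 0.211 for nuclei with at least 500 genes and 0.665 with barcodes weighted equally, and was 0.544 to 0.606 under the others. Of the 80 alternative levels of single genes at day 5, 17 moved beyond their counting interval, 8 of them with marker counts, and of the 56 ratios at day 1, 6 did, all with at least 500 genes. The cause was not tested. Removing doublets gives no value of its own, since none were marked. No paired analysis was possible because each condition has 1 library, and for the same reason no replicate could be left out. Depth limits Retnlg, Ngp, Lcn2 and Camp most, with 10 to 16 UMIs at day 5 and 3 to 10 UMIs in day 1 nuclei.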
